A study of Mus musculus with 30 samples.

Results

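The respiratory chain subunit genes were measured in B-lineage progenitors that lacked E2A, EBF or RAG1. The rule took every Agilent probe with a gene name beginning with Nduf, Uqcr, Cox4 to Cox7 or Atp5, plus Sdha, Sdhb, Sdhc and Sdhd, and kept for each gene the probe with the highest mean log2 processed signal over the 6 RNA samples. It gave 80 of the 27808 gene names on the array. Of these, 53 had 1 probe and 27 had several, 112 probes in all. By complex, 37 genes were assigned to complex I, 4 to complex II, 7 to complex III, 15 to complex IV and 15 to complex V. The remaining 2, Atp5s and Cox4nb, carry array names that have since become Dmac2l and Emc8 and do not encode respiratory chain subunits. Ndufaf1 and Ndufa12l, now Ndufaf2, are assembly factors counted with complex I, so that 76 of the 80 encode subunits.

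The respiratory chain sits in the inner mitochondrial membrane. Complex I (NADH dehydrogenase) and complex II (succinate dehydrogenase) pass electrons to ubiquinone, complex III passes them to cytochrome c, and complex IV (cytochrome c oxidase) passes them to oxygen, while complex V (ATP synthase) makes ATP from the proton gradient that complexes I, III and IV build. Most subunits are nuclear genes expressed in nearly all cells, whereas a few complex IV subunits exist as paired isoforms, one found in most tissues and the other best known from heart and skeletal muscle. Dividing lymphocyte progenitors rely on this chain for ATP and for recycling NAD+.

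The study of the network of E2A, EBF and FOXO1 in B cell fate compared RNA from 3 kinds of untreated C57BL/6 mouse cells, with 2 samples each, on 4 two-colour arrays of 1 slide. E2A-/- and EBF-/- pre-pro-B cells, which lack a transcription factor needed for B-lineage commitment, grew on the S17 stromal line with IL7, SCF and FLT3 ligand. RAG1-/- pro-B cells carry both factors but cannot rearrange their antigen receptor genes, so they stop at the pro-B stage. They were enriched from femoral bone marrow by B220 on magnetic beads and grown for 10 d in medium with SCF and IL-7. In either comparison with RAG1-/- cells, genotype, stage and growth conditions cannot be told apart, and no wild-type sample was part of the design. Nothing in the labels says that the 2 samples of a group came from separate animals or cultures, so p-values measure only the spread between these samples. In bulk RNA, fewer cells of a type and less RNA per cell cannot be told apart. The samples also included ChIP-seq, of which 6 libraries from EBF-/- cells, 9 from RAG1-/- cells and 1 mock immunoprecipitation from wild-type lymphoid cells were used here.

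Between 40.9% and 61.8% of 43379 spots were well above background in a sample, and the number of arrays limits the precision. The summed signal of 7 pro-B markers was 19.79 and 19.58 (log2) in RAG1-/- cells, 11.49 and 11.49 in EBF-/- cells, and 14.01 and 11.66 in E2A-/- cells, and all 7 were well above background in both RAG1-/- samples. E2A-/- replicate 1 stood apart in this list, with 7 of 7 markers above background against 3 of 7 in replicate 2, and it shared an array with RAG1-/- replicate 1. Myeloid markers summed to 16.51 and 16.60 in E2A-/- cells, 15.28 and 15.31 in EBF-/- cells, and 12.15 and 15.58 in RAG1-/- cells, so that the RAG1-/- samples differed from each other. T and NK markers were highest in EBF-/- cells (15.47 and 15.41, against 13.17 to 13.54 elsewhere), with 4 of 6 tested markers called above E2A-/- cells and 4 of 6 called above RAG1-/- cells. All 4 cycling markers were higher in RAG1-/- cells than in both other groups, with sums of 17.47 and 16.80 against 15.84 to 16.02. Erythroid markers summed to 16.04 and 16.05, 14.01 and 13.80, and 12.88 and 12.44 in E2A-/-, EBF-/- and RAG1-/- cells, and mast cell markers to 6.26 and 6.76, 10.58 and 10.65, and 6.76 and 10.69. Stromal markers well above background numbered 2 and 0 of 5 for E2A-/- cells, 0 and 2 for EBF-/-, 2 and 3 for RAG1-/-. The collagens Col1a1 and Col3a1 never reached that level. Of the 2 stromal markers tested, Col1a2 was called in no comparison. The other, Fn1, was well above background only in RAG1-/- cells. It was called higher there, by 3.11 over EBF-/- and 2.82 over E2A-/- cells. Fn1 passed the detection filter, given below, through RAG1-/- cells alone, so these differences set signal against readings at background. The part of these markers in the results for the respiratory chain genes was not tested.

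Levels below are log2 processed signals after quantile normalization, differences are log2 values with their standard error (SE), and a gene was called when limma's p, adjusted over the 12368 genes that passed a detection filter, was under 0.05. A probe's level depends on its own sequence, so levels are compared between samples and never between genes. Of the 80 genes, 79 passed the filter and 0 were saturated. Cox4i2, the hypoxia-inducible form of subunit 4, did not pass. It read 4.27 and 3.02 in E2A-/- cells, 3.03 and 4.65 in EBF-/- cells, and 4.48 and 3.97 in RAG1-/- cells, and was well above background only in the first E2A-/- sample.

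The respiratory chain genes as a group differed little between the 3 kinds of cells, apart from a few genes. From E2A-/- to EBF-/- cells, 3 of the 79 tested genes were called higher and 12 lower, which is 19.0%, while 24.7% of all tested genes were called. The median difference over the 80 genes was -0.16, against -0.01 over all tested genes. From EBF-/- to RAG1-/- cells, 11 were higher and 12 lower (29.1%, against 44.3% of all tested genes), with a median of -0.06 against 0.04. Scaling each sample to its 75th percentile instead gave 15 higher and 8 lower there (19% and 10.1%, against 21.7% and 21.2% of all tested genes). From E2A-/- to RAG1-/- cells, 3 were higher and 26 lower (36.7%, against 46.5% of all tested genes), with a median of -0.21 against 0.03. Under the 75th percentile scaling the split in this comparison was 5 higher and 11 lower (13.9% lower, against 21.2% of all tested genes), and the median over the 80 genes was -0.016 against 0.08 over all tested genes. In this comparison 32.9% of the tested respiratory chain genes were called lower, where 23.3% of all tested genes were, so the order of these shares turned with the scaling. The counts depended on single samples, as did the share of all tested genes called. The 15 calls from E2A-/- to EBF-/- cells became 2 without either E2A-/- replicate, where 10.2% and 8.09% of all genes were called. They became 1 without either EBF-/- replicate (2.84% and 3.3% of all genes), and 27 and 30 without RAG1-/- replicate 1 and 2 (40.2% and 41.2%). The 23 calls from EBF-/- to RAG1-/- cells became 2 and 3 without EBF-/- replicate 1 and 2 (15.2% and 19.3% of all genes), and 15 without E2A-/- replicate 2 (32.7%). The 29 calls from E2A-/- to RAG1-/- cells became 14 and 5 without E2A-/- replicate 1 and 2 (32.8% and 22.3% of all genes), and 13 and 14 without EBF-/- replicate 1 and 2 (31.8% and 34.6%).

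Differences over 2-fold were rare among these genes. They were seen for 2 of the 80 from E2A-/- to EBF-/- cells, 2 from EBF-/- to RAG1-/- cells and 3 from E2A-/- to RAG1-/- cells, where 15.8%, 27.6% and 29.0% of all tested genes passed the same fold. The 3 genes concerned were Cox6a2, Cox7a1 and Atp5j2. Most members gave bright spots: 60 of them lay among the 1376 genes with a mean log2 level of at least 13.60. Over those 1376 genes the median differences were 0.01, -0.06 and -0.07 in the 3 comparisons, in the order above, and 28.8% were called lower in RAG1-/- than in E2A-/- cells. The median difference between the 2 replicates of a group was 0.10 to 0.15 over the members and 0.14 to 0.22 over all tested genes, so many called differences were only a few times the replicate difference. Of 54 calls on members named in the analysis, 7 kept their direction and threshold in all 14 alternative settings: Cox6a2 in the 3 comparisons, Cox7a1 in both comparisons with RAG1-/- cells, and Atp5j2 and Uqcr from E2A-/- to RAG1-/- cells.

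**Figure D1:**
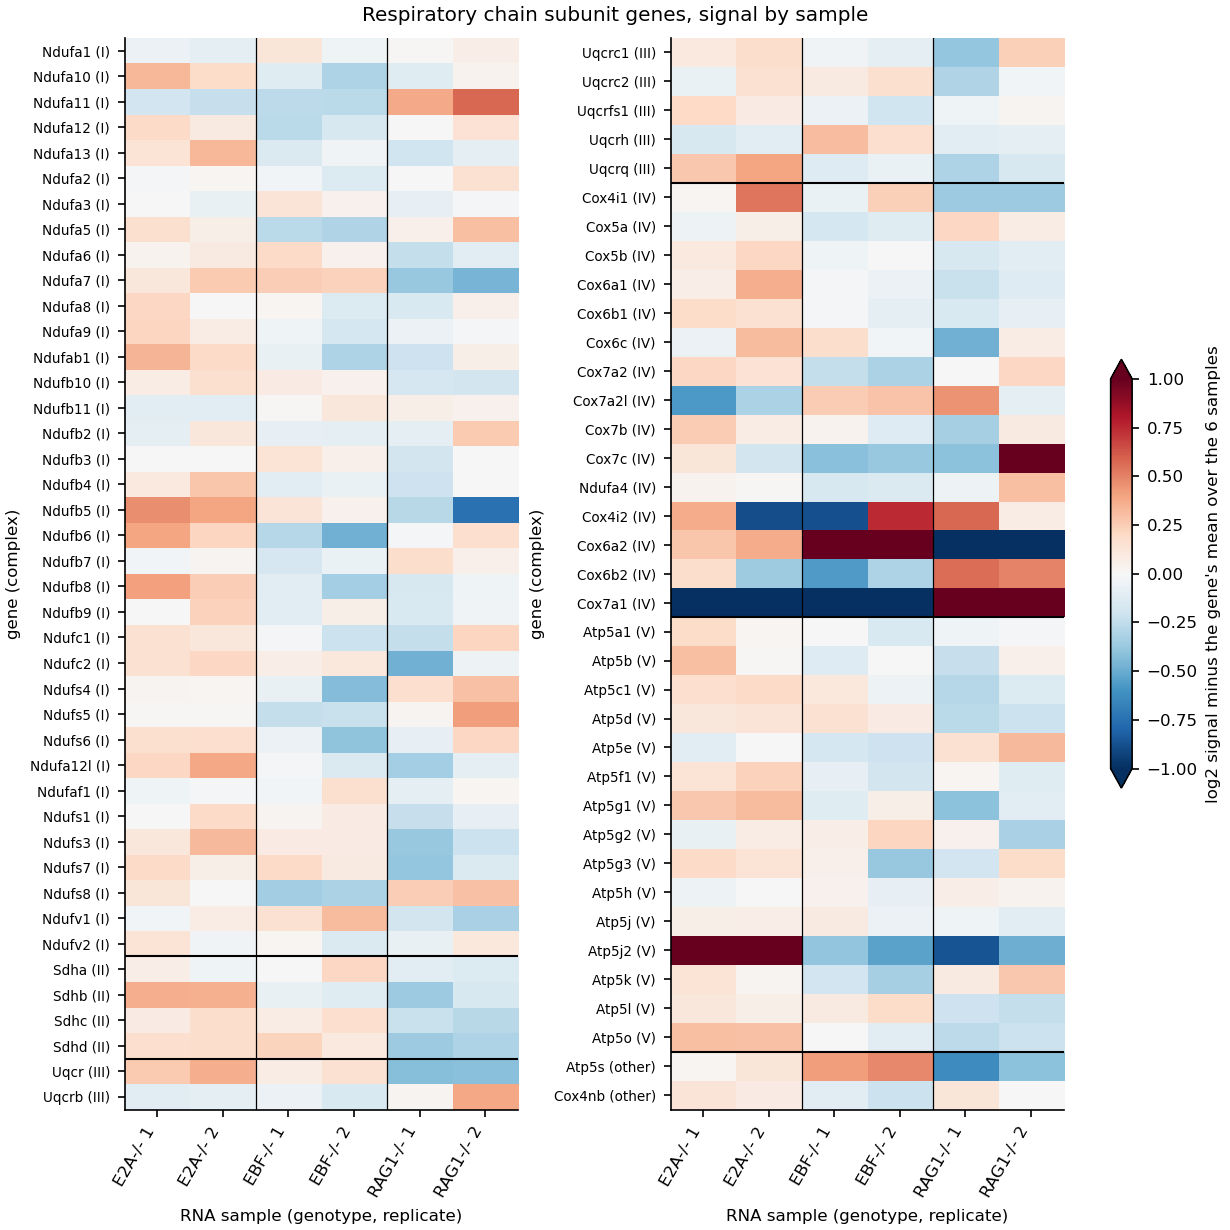
Heat map of 79 of the 80 respiratory chain genes, grouped by complex (vertical axis), in each of the 6 RNA samples (horizontal axis); colour is the log2 level minus that gene's mean over the 6 samples. Most genes stay pale across the samples, while Cox6a2, Cox7a1 and Atp5j2 carry the deepest colours, with Cox7c in RAG1-/- replicate 2.

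Cytochrome c oxidase (complex IV) held the largest differences. Of its 14 tested genes, 2 were called higher and 1 lower from E2A-/- to EBF-/- cells, 3 higher and 1 lower from EBF-/- to RAG1-/- cells, and 2 higher and 3 lower from E2A-/- to RAG1-/- cells. These are 21.4%, 28.6% and 35.7% of its tested genes, all below the 24.7%, 44.3% and 46.5% over all genes. Its median differences were -0.17, -0.06 and -0.07 over all 15 genes, including Cox4i2, which did not pass the filter. Without the 4 tissue isoforms, the other 11 genes had medians of -0.18, -0.08 and -0.28. The genes that moved most were the isoforms best known from heart and muscle, and they did not move together.

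Cox6a2 encodes the heart and muscle form of subunit 6a, which regulates the activity of the complex. It read 13.69 and 13.79 in E2A-/- cells, 15.98 and 16.10 in EBF-/- cells, and 10.67 and 10.27 in RAG1-/- cells. The 3 groups did not overlap, EBF-/- cells being highest and RAG1-/- cells lowest. The level was 4.90-fold higher in EBF-/- than in E2A-/- cells (2.29, SE 0.11, limma adjusted p = 0.00204) and 47.3-fold lower in RAG1-/- than in EBF-/- cells (-5.56, SE 0.11, limma adjusted p = 0.000365). RAG1-/- cells were also 9.65-fold below E2A-/- cells (-3.27, SE 0.11, limma adjusted p = 0.000324). The form of most tissues, Cox6a1, read 17.31 and 17.61, 17.22 and 17.19, and 17.02 and 17.11 in the same order and was called in none of the 3 comparisons.

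Cox7a1, the heart and muscle form of subunit 7a, was highest in RAG1-/- cells. It read 7.08 and 6.52 in E2A-/- cells, 7.30 and 7.18 in EBF-/- cells, and 10.79 and 11.19 in RAG1-/- cells, and was not well above background in E2A-/- replicate 2. Both RAG1-/- samples stood above all 4 others. Cox7a1 was 13.5-fold higher in RAG1-/- than in EBF-/- cells (3.76, SE 0.19, limma adjusted p = 0.000697) and 18.4-fold higher than in E2A-/- cells (4.20, SE 0.19, limma adjusted p = 0.000503), the latter against a group with 1 of its 2 samples above background. With normexp background correction these differences were 3.05 and 3.25 on the log2 scale, so the folds of this dim probe depend on the correction. From E2A-/- to EBF-/- cells the difference of 0.44 was not called (SE 0.19, limma adjusted p = 0.165). The form of most tissues, Cox7a2, read 15.00 and 14.93, 14.55 and 14.48, and 14.79 and 15.00. It was lower in EBF-/- than in E2A-/- cells (-0.45) and higher in RAG1-/- than in EBF-/- cells (0.38).

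Subunit 8 lies outside the gene name rule but has the same kind of isoform pair. Cox8b, its heart and muscle form, read 4.24 and 4.13 in E2A-/- cells, 10.66 and 10.67 in EBF-/- cells, and 3.96 and 3.18 in RAG1-/- cells. Both EBF-/- samples stood above the other 4. It was not well above background in both RAG1-/- samples and in E2A-/- replicate 2. EBF-/- cells were at least 61.3-fold above RAG1-/- cells, a bound set against the lowest signal well above background, and the limma adjusted p was 0.000775. Cox8b passed the detection filter through EBF-/- cells alone, so this p sets signal against readings at background. Cox8a, the form of most tissues, read 16.40 and 16.46, 16.19 and 16.26, and 15.82 and 15.60, and was lower in RAG1-/- cells than in EBF-/- cells (-0.51) and E2A-/- cells (-0.72). Cox6a2 and Cox8b were thus both highest in EBF-/- cells, while Cox7a1 was highest in RAG1-/- cells.

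**Figure D2:**
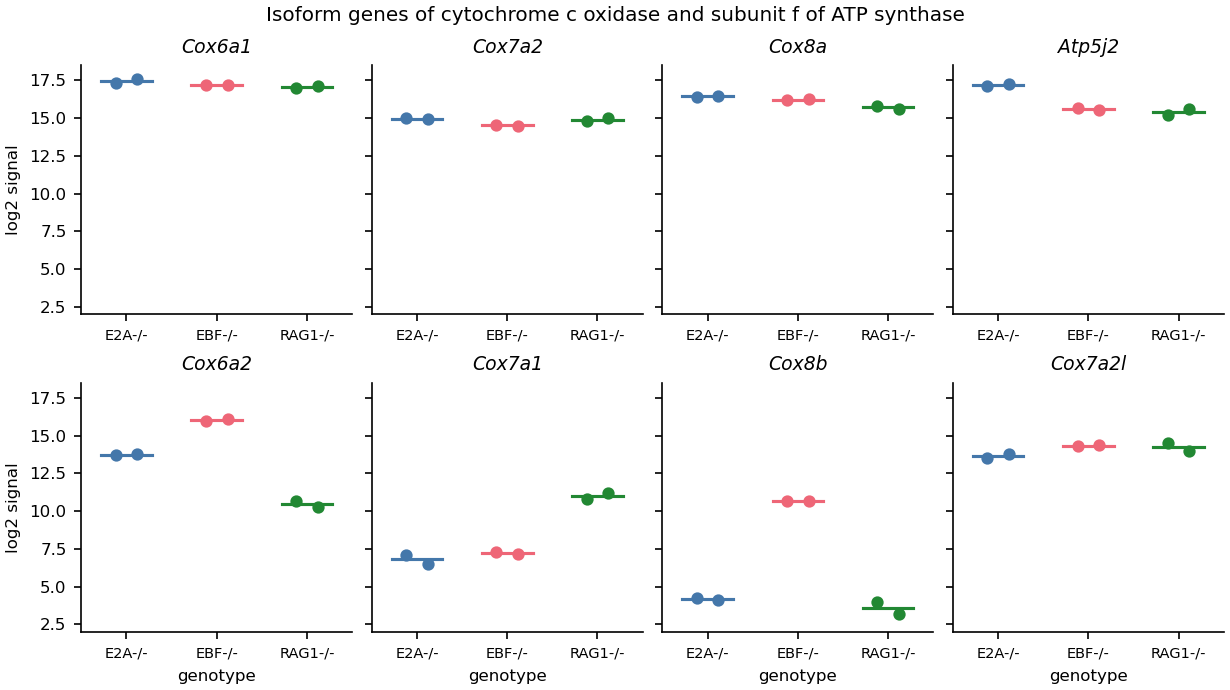
Log2 level in each of the 6 RNA samples (points, 2 per group) for the isoform pairs of complex IV subunits and for Atp5j2. Cox6a2 and Cox8b peak in EBF-/- cells, Cox7a1 peaks in RAG1-/- cells, and the forms of most tissues (Cox6a1, Cox7a2, Cox8a) differ far less across the samples.

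The 250 bases before the start of 6 of these genes are printed because they let isoforms be compared by sequence. Cox6a2 is not among them. They are RefSeq sequence on GRCm38.p6, read 5′ to 3′ on the gene's strand. Capitals mark matches, on either strand, to 9 short motifs: GCATGCGC (NRF1), CCGGAAG (ETS factors such as GABPA), AAGATGGCG (YY1), GGGCGGG (SP1), TGACGTCA (the cAMP response element), CAGCTG and CAGGTG (E-boxes that E2A can bind), CCCNNGGGA (EBF1) and TGTTTAC (FOXO). A match is a description of letters and not of binding. Cox7a1 lies at chr7:30183921-30184170 on the plus strand. The others are on the minus strand: Cox8b at chr7:140900447-140900696, Cox7a2 at chr9:79759854-79760103, Cox8a at chr19:7217617-7217866, Cox6a1 at chr5:115348959-115349208 and Atp5j2 at chr5:145191542-145191791.
Cox7a1: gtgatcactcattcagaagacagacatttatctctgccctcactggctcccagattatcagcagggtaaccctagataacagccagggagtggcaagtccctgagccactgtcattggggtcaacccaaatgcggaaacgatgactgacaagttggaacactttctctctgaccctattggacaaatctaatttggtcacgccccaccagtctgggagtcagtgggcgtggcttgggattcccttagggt
Cox8b: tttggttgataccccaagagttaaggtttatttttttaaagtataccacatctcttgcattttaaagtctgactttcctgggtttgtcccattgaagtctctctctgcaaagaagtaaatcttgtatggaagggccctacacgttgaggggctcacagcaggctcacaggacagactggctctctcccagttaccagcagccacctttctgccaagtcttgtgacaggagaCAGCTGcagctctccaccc
Cox7a2: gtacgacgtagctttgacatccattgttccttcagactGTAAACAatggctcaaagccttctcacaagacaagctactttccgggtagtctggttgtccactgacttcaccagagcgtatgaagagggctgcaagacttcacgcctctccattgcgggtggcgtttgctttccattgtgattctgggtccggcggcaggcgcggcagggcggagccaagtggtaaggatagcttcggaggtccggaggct
Cox8a: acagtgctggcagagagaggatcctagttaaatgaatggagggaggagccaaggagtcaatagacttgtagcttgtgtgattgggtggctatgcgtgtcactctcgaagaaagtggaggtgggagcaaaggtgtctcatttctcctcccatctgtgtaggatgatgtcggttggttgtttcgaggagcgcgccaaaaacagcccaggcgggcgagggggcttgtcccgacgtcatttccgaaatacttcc
Cox6a1: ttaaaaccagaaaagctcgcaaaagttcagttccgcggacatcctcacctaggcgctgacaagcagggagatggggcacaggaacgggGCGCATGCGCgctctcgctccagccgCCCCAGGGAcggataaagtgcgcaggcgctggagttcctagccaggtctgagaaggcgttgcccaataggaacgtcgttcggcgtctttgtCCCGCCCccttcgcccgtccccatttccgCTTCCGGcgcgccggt
Atp5j2: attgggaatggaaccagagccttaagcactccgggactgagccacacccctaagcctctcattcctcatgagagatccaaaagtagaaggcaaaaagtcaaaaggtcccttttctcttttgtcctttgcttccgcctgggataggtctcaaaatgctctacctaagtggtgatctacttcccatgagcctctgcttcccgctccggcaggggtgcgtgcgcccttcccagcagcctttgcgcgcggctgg
The 2 muscle-type genes printed had few CpG dinucleotides, 4 for Cox7a1 and 1 for Cox8b, against 14, 11 and 26 for Cox7a2, Cox8a and Cox6a1. Cox7a1 and Cox8b held no match to the NRF1, ETS, YY1, SP1 or cAMP motifs in this stretch. The same was true of Cox7a2, Cox8a and Atp5j2, so this did not set the muscle-type genes apart. Cox6a1 held 5 matches, namely NRF1 on both strands in 1 overlapping stretch, EBF1, SP1 and ETS. Cox8b held 1 CAGCTG E-box and Cox7a2 held 1 FOXO match.

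The other complex IV genes moved less. Cox7a2l, which encodes a factor that joins complexes III and IV into supercomplexes, read 13.51 and 13.76 in E2A-/- cells, 14.33 and 14.36 in EBF-/- cells, and 14.53 and 13.98 in RAG1-/- cells. All 4 samples of the latter groups were above both E2A-/- samples, and it was called higher in EBF-/- cells (0.70, SE 0.14) and in RAG1-/- cells (0.61, SE 0.14). Cox4i1, the common form of subunit 4, was lower in RAG1-/- than in E2A-/- cells (-0.64), as was Cox5b (-0.29). Cox5a was higher in RAG1-/- than in EBF-/- cells (0.29). Cox7c read 11.98 and 13.65 in the 2 RAG1-/- samples, more than 2-fold apart, and was not called. Neither form of subunit 6b was called: Cox6b2, best known from testis, read 7.43 and 6.89, 6.68 and 6.94, and 7.81 and 7.74, and its RAG1-/- samples were above the other 4 with a difference of 0.98 from EBF-/- cells (SE 0.29, limma adjusted p = 0.0503). It was not well above background in E2A-/- replicate 2. Cox6b1 read between 11.12 and 11.45 in the 6 samples.

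For ATP synthase (complex V), calls against E2A-/- cells were all lower. Of 15 tested genes, 0 were higher and 3 lower from E2A-/- to EBF-/- cells by limma, 2 higher and 2 lower from EBF-/- to RAG1-/- cells, and 0 higher and 6 lower from E2A-/- to RAG1-/- cells, with medians of -0.17, -0.09 and -0.23. Called lower were thus 20%, 13.3% and 40% of its genes, against 11.8%, 22.8% and 23.3% of all tested genes. The largest difference was in Atp5j2, which encodes subunit f of the membrane part. Atp5j2 read 17.13 and 17.29 in E2A-/- cells, 15.68 and 15.54 in EBF-/- cells, and 15.21 and 15.58 in RAG1-/- cells. Both E2A-/- samples stood above the 4 others, and the latter groups overlapped. It was 3.02-fold lower in EBF-/- than in E2A-/- cells (-1.60, SE 0.15, limma adjusted p = 0.0051) and 3.51-fold lower in RAG1-/- cells (-1.81, SE 0.15, limma adjusted p = 0.00152). Its second probe gave -1.43 and -0.86 for these differences. From EBF-/- to RAG1-/- cells the difference was not called (-0.22), and the second probe gave 0.57.

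The other complex V calls were under 1.5-fold. Atp5o, the stator subunit that holds the catalytic head, was lower in EBF-/- (-0.35) and in RAG1-/- cells (-0.53) than in E2A-/- cells. Atp5k, subunit e, was lower in EBF-/- than in E2A-/- cells (-0.34) and higher in RAG1-/- than in EBF-/- cells (0.45). Atp5e of the central stalk was also higher in RAG1-/- than in EBF-/- cells (0.43), while Atp5d of the same stalk (-0.36) and Atp5l, subunit g (-0.36), were lower. From E2A-/- to RAG1-/- cells, Atp5g1 of the proton-carrying c ring differed by -0.55 and Atp5c1, the rotating gamma subunit, by -0.39, both called lower. Atp5g1 read 14.68 and 14.74, 14.29 and 14.47, and 14.01 and 14.30. Atp5g2 and Atp5g3, which encode the same c subunit protein with other import sequences, were called in no comparison.

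Complex I, with 37 tested genes, had 0 called higher and 6 lower from E2A-/- to EBF-/- cells by limma, 6 higher and 4 lower from EBF-/- to RAG1-/- cells, and 1 higher and 11 lower from E2A-/- to RAG1-/- cells. The shares called, 16.2%, 27% and 32.4%, were below those over all genes (24.7%, 44.3% and 46.5%), and the median differences were -0.13, 0.00 and -0.18. On its brightest probe, no member of the complex differed by 2-fold in any comparison. A second detected probe passed that fold for Ndufab1 from E2A-/- to EBF-/- cells (-1.14) and for Ndufa11, as given below.

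Ndufb6, an accessory subunit of the membrane arm, read 14.49 and 14.31 in E2A-/- cells, 13.80 and 13.61 in EBF-/- cells, and 14.08 and 14.26 in RAG1-/- cells. Both EBF-/- samples were below the other 4, giving -0.69 against E2A-/- cells (SE 0.07, limma adjusted p = 0.00633) and 0.46 from EBF-/- to RAG1-/- cells. Ndufs8, an iron-sulfur subunit of the core, had the same shape, with 12.35 and 12.23, 11.88 and 11.91, and 12.48 and 12.52. It gave -0.40 and then 0.61 (SE 0.08 for both). Ndufa5 also gave -0.39 and then 0.46. Ndufs4 was higher in RAG1-/- than in EBF-/- cells (0.48).

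Ndufa7, an accessory subunit of complex I, read 15.31 and 15.46 in E2A-/- cells, 15.44 and 15.42 in EBF-/- cells, and 14.82 and 14.73 in RAG1-/- cells. Both RAG1-/- samples were lowest, with -0.66 against EBF-/- and -0.61 against E2A-/- cells (SE 0.08 for both), and the second probe gave -0.53 and -0.54. Ndufb5 of the membrane arm read 12.94 and 12.87, 12.60 and 12.51, and 12.20 and 11.72. Its RAG1-/- samples were again lowest, with -0.95 against E2A-/- cells (SE 0.17, limma adjusted p = 0.0123). Ndufv1, which binds the flavin that accepts electrons from NADH, was lower in RAG1-/- than in EBF-/- (-0.49) and E2A-/- cells (-0.28), as was the iron-sulfur subunit Ndufs7 (-0.41 and -0.39). The core subunit Ndufs3 was lower in RAG1-/- than in E2A-/- cells (-0.52), as was the assembly factor Ndufa12l (-0.51), while the assembly factor Ndufaf1 was called in no comparison.

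Ndufa11, a membrane accessory subunit, was the 1 complex I gene called higher in RAG1-/- than in E2A-/- cells. It read 11.05 and 11.00 in E2A-/- cells, 10.98 and 10.96 in EBF-/- cells, and 11.61 and 11.81 in RAG1-/- cells. Both RAG1-/- samples were above the 4 others, by 0.74 over EBF-/- and 0.69 over E2A-/- cells (SE 0.10 for both). The second Ndufa11 probe gave 2.11 and 1.86. Its replicates lay far apart, at 10.57 and 8.25 in E2A-/- and 7.87 and 10.45 in EBF-/- cells. Ndufb8, Ndufab1 (the mitochondrial acyl carrier protein) and Ndufa10 were lower in EBF-/- (-0.56, -0.46 and -0.47) and in RAG1-/- cells (-0.43, -0.34 and -0.30) than in E2A-/- cells. From E2A-/- to RAG1-/- cells, however, another detected probe had the opposite sign for 3 of the 7 called members with several such probes, namely Ndufb8 (0.50), Ndufab1 (0.25) and the complex III gene Uqcrq (0.12).

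Complex II, which also serves in the citric acid cycle, consists of 4 subunits, all of them tested. Of these, 0 were higher and 1 lower from E2A-/- to EBF-/- cells by limma, 0 higher and 2 lower from EBF-/- to RAG1-/- cells, and 0 higher and 3 lower from E2A-/- to RAG1-/- cells, with medians of -0.01, -0.29 and -0.44. Over all tested genes 11.8%, 22.8% and 23.3% were called lower, and 4 genes are too few to set a share against these. Sdhb, the iron-sulfur subunit, read 14.69 and 14.68 in E2A-/- cells, 14.26 and 14.21 in EBF-/- cells, and 13.96 and 14.17 in RAG1-/- cells. Both E2A-/- samples were highest, with -0.45 to EBF-/- (SE 0.09) and -0.62 to RAG1-/- cells (SE 0.09, limma adjusted p = 0.00604). The membrane anchors Sdhc and Sdhd were lower in RAG1-/- than in both other groups. Sdhd read 14.89 and 14.89, 14.94 and 14.81, and 14.35 and 14.41, a difference of -0.50 from EBF-/- and -0.51 from E2A-/- cells. Sdhc gave -0.37 and -0.38. Sdha, the flavoprotein that oxidizes succinate, read 12.58 and 12.47, 12.52 and 12.71, and 12.41 and 12.37 and was called in no comparison.

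In complex III, 1 of 7 genes was higher and 1 lower from E2A-/- to EBF-/- cells. From EBF-/- to RAG1-/- cells and from E2A-/- to RAG1-/- cells 0 were higher and 2 lower by limma, and the 3 medians were -0.19, -0.14 and -0.21. Each count of 2 calls is 28.6% of its genes, against 24.7%, 44.3% and 46.5% over all genes. Uqcr, now Uqcr11 and the smallest subunit of the complex, read 15.23 and 15.33 in E2A-/- cells, 15.04 and 15.12 in EBF-/- cells, and 14.54 and 14.55 in RAG1-/- cells. Both RAG1-/- samples were lowest, with -0.54 against EBF-/- (SE 0.07) and -0.74 against E2A-/- cells (SE 0.08, limma adjusted p = 0.00267). Uqcrh, the hinge protein beside cytochrome c1, read 16.70 and 16.76, 17.17 and 17.03, and 16.75 and 16.76. It was highest in EBF-/- cells, with 0.38 from E2A-/- to EBF-/- and -0.35 from EBF-/- to RAG1-/- cells. Uqcrq was lower in EBF-/- (-0.43) and RAG1-/- cells (-0.56) than in E2A-/- cells, apart from the second probe given above.

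Of the members that encode no subunit of a complex, Atp5s (now Dmac2l) read 10.43 and 10.53 in E2A-/- cells, 10.82 and 10.89 in EBF-/- cells, and 9.78 and 10.00 in RAG1-/- cells. Both RAG1-/- samples were lowest, with -0.97 against EBF-/- cells (SE 0.13, limma adjusted p = 0.00551) and -0.59 against E2A-/- cells (SE 0.13). Cox4nb was called in no comparison.

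**Figure D3:**
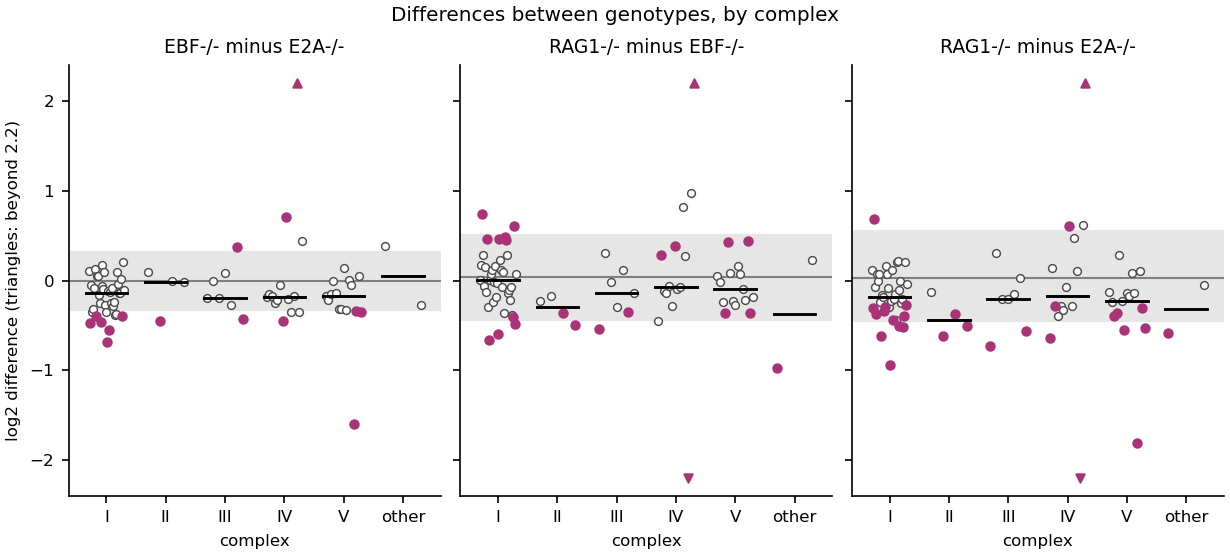
Log2 difference of each respiratory chain gene that passed the detection filter (points) by complex (horizontal axis) in the 3 comparisons (panels), with filled points for genes called by limma and a bar at each complex's median. The medians of complexes I to V lie between -0.44 and 0.00 and the points beyond 1 log2 unit are Cox6a2, Cox7a1 and Atp5j2.

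Genes of the surrounding pathway were read from lists drawn up with earlier results of these data known. Among 13 tested electron carriers and enzymes that feed ubiquinone, 1 was higher and 5 lower from E2A-/- to EBF-/- cells, 3 and 4 from EBF-/- to RAG1-/- cells, and 1 and 7 from E2A-/- to RAG1-/- cells. Called lower were 38.5%, 30.8% and 53.8% of them, against 11.8%, 22.8% and 23.3% of all tested genes. Cycs, the somatic cytochrome c that carries electrons from complex III to IV, read 16.16 and 16.30 in E2A-/- cells, 14.57 and 14.53 in EBF-/- cells, and 14.93 and 15.39 in RAG1-/- cells. It was highest in E2A-/- cells, with -1.67 to EBF-/- (SE 0.17, limma adjusted p = 0.00594) and -1.07 to RAG1-/- cells (SE 0.17). Gpd2, the mitochondrial glycerol-3-phosphate dehydrogenase, read 11.35 and 11.58, 10.60 and 10.61, and 9.95 and 9.84. Its groups did not overlap, and the difference from E2A-/- to RAG1-/- cells was -1.57 (SE 0.11, limma adjusted p = 0.00103). In ubiquinone synthesis, Coq7 was higher in RAG1-/- than in EBF-/- cells (1.19) while Coq9 was lower (-0.95).

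Of 8 tested subunits or partners outside the name rule, 4 were lower in RAG1-/- than in EBF-/- cells and 4 lower than in E2A-/- cells (50.0% each, against 22.8% and 23.3% of all tested genes). Among those lower than in EBF-/- cells was Cox8b, which passed the filter through EBF-/- cells alone. Its call sets signal against readings at background. Atpif1, the inhibitor of ATP synthase, was lower in EBF-/- (-0.43) and RAG1-/- cells (-0.92) than in E2A-/- cells, as was Cyc1, cytochrome c1 of complex III (-0.50 and -0.59). Of the subunits encoded in mitochondrial DNA, CYTB was lower in RAG1-/- than in EBF-/- cells (-0.58). From E2A-/- to EBF-/- cells CYTB, ND4L and COX2 differed by 0.49, 0.51 and 0.40, none of them called. Assembly factors were called in both directions: of 22 tested, 5 were higher and 4 lower from EBF-/- to RAG1-/- cells, and 1 higher and 6 lower from E2A-/- to RAG1-/- cells. The shares called lower, 18.2% and 27.3%, stand against the same 22.8% and 23.3%. Sdhaf2, which attaches the flavin to Sdha, was 1.18 and 1.37 higher in RAG1-/- than in EBF-/- and E2A-/- cells. Acad9, needed to assemble complex I, was lower in RAG1-/- cells (-0.90 and -1.22). In the citric acid cycle, 0 of 13 tested genes were higher and 7 lower from E2A-/- to RAG1-/- cells (53.8% lower, against 23.3%). Among the 7 was Suclg2 (-1.59), a subunit of succinyl-CoA ligase. From E2A-/- to EBF-/- cells 0 were higher and 3 lower (23.1% lower, against 11.8%). From EBF-/- to RAG1-/- cells 2 were higher and 4 lower (15.4% and 30.8%, against 21.5% and 22.8%).

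Of 16 tested regulators of mitochondrial genes, 6 were higher and 3 lower from EBF-/- to RAG1-/- cells, and 6 higher and 4 lower from E2A-/- to RAG1-/- cells. The share called higher was 37.5% in both, against 21.5% and 23.2% of all tested genes. Called lower were 18.8% and 25%, against 22.8% and 23.3%. Ppargc1a, a coactivator that raises mitochondrial gene expression in muscle and brown fat, read 4.84 and 3.09 in E2A-/- cells, 3.05 and 3.08 in EBF-/- cells, and 8.93 and 8.50 in RAG1-/- cells. It was not well above background in both EBF-/- samples and in E2A-/- replicate 2. RAG1-/- cells were at least 7.92-fold above EBF-/- cells, with limma adjusted p = 0.00447. Ppargc1a passed the detection filter through RAG1-/- cells alone, so this p sets signal against readings at background. The same gene is among the 6 regulators called higher in both comparisons, so the share of 37.5% includes it. Nrf1, the factor that binds the motif of the same name, was higher in RAG1-/- than in E2A-/- cells (1.01, SE 0.12). Myc was lower (-1.69, SE 0.22).

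The authors' ChIP-seq regions were set against the position of each member's probe on mm8, the build of the array and of the region lists. There was 1 library for each factor or histone mark, so there is no replicate check and no test. Probes lie toward the 3' end of a transcript, so a region within 10 kb of the probe need not be at the gene's start, and gene length was not accounted for. Marks of active promoters lay near most members. In EBF-/- cells, 65 of the 80 had an H3K4me3 region within 10 kb (81.2%, against 35.1% of 12324 tested genes with a position), and 65 had an H3K9/14ac region (81.2% against 42.4%). In RAG1-/- cells these were 64 (80.0% against 41.6%) and 63 (78.8% against 41.0%). The mock immunoprecipitation had a region near 0 of the 80 members and near 0.398% of the tested genes.

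Factor regions were near fewer members. E2A regions in EBF-/- cells lay near 24 of the 80 (30.0%, against 12.4% of tested genes), and E2A regions in RAG1-/- cells near 19 (23.8% against 20.8%). They shared 12 genes, which is 50.0% of the first list and 63.2% of the second. Over all tested genes the shared part was 61.3% and 36.4%. Among the EBF-/- E2A regions at or above the median of the authors' score, the count was 8 members (10.0% against 6.75%). The EBF regions of RAG1-/- cells lay near 1 member, Uqcr (1.25% against 3.25%), and the FOXO1 regions near 2, Atp5b and Cox7a2 (2.5% against 3.89%). CTCF regions lay near 46 (57.5% against 55.5%). Regions of the repressive mark H3K27me3 lay near 1 member in EBF-/- cells, Ndufb8 (1.25% against 1.71%), and near 4 in RAG1-/- cells, Atp5g2, Ndufa10, Ndufb8 and Uqcrc1 (5.0% against 3.59%), close to the shares of all tested genes.

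**Figure D4:**
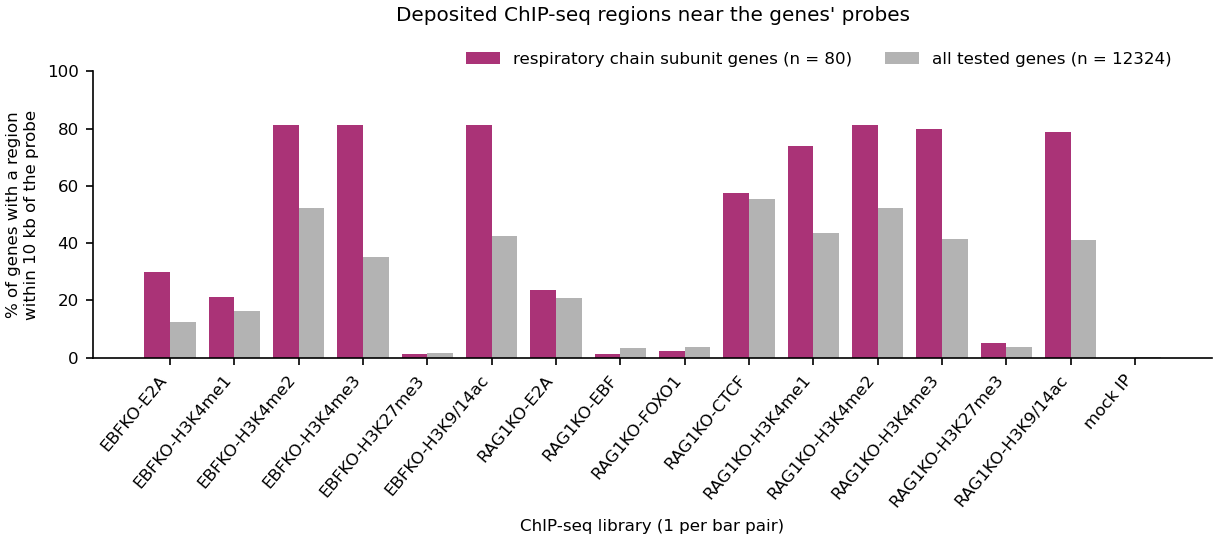
Percent of genes with an authors' ChIP-seq region within 10 kb of the probe (vertical axis) for each library (horizontal axis), for the 80 respiratory chain genes and for all 12324 tested genes with a position. The members are far above all genes for H3K4me2, H3K4me3 and H3K9/14ac in both kinds of cells and for H3K4me1 in RAG1-/- cells, and close to or below them for EBF, FOXO1 and CTCF.

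Among the genes that moved most, the marks differed between the cells in Cox6a2. Its probe, at chr7:127996794-127996853 on mm8, lay inside an H3K4me2, an H3K4me3 and an H3K9/14ac region of EBF-/- cells, with the authors' scores of 102, 20 and 110. In RAG1-/- cells the regions within 10 kb of it were 1 of H3K4me1, at 1691 bp with a score of 58, and 1 of CTCF, at 2596 bp. Cox6a2 was the 1 member with an H3K4me3 region near its probe in EBF-/- cells and not in RAG1-/- cells (1.25%, against 0.503% of all tested genes). It and Ndufs6 were the 2 for H3K9/14ac (2.5% against 4.8%). In RAG1-/- cells alone, 0 members had an H3K9/14ac region, against 3.37% of all tested genes. Scores from different libraries are not on 1 scale.

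Near the Cox7a1 probe, which spans chr7:29894078-29894689 on mm8, EBF-/- cells had an H3K4me2 region at 625 bp with a score of 13, and RAG1-/- cells had H3K4me1, H3K4me2 and H3K9/14ac regions at 596, 636 and 468 bp with scores of 33, 76 and 20. The H3K4me3 regions of both kinds of cells lay over 8 kb away, at 8185 and 8188 bp. Near the Cox8b probe, EBF-/- cells had H3K4me1 and H3K4me2 regions at 1043 and 965 bp, whereas in RAG1-/- cells the nearest regions of the same marks were at 9509 and 9557 bp. None of these 3 genes had an E2A, EBF or FOXO1 region within 10 kb. Cox7a2 had an E2A region in both kinds of cells, at 4381 and 4391 bp, and a FOXO1 region at 4337 bp in RAG1-/- cells. Uqcr had E2A regions at 3047 and 3064 bp and an EBF region at 7305 bp.

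Promoter windows of 250 bases before to 50 after the start were found in the RefSeq table for 66 of the 80 members and for 27025 genes in all. The motifs named above were searched on both strands, and a gene counted once however many matches its windows held. NRF1 matches were in 10 members (15.2%, against 3.05% of all genes with a window), ETS matches in 16 (24.2% against 9.93%) and YY1 matches in 7 (10.6% against 1.64%). The 7 were Atp5j, Atp5j2, Ndufa9, Ndufc1, Ndufs4, Ndufs6 and Ndufs7. The cAMP element was in 4 (6.06% against 2.03%) and the SP1 motif in 23 (34.8% against 27.9%). Matches to the motifs of the B-lineage factors were no more common than in all genes: CAGCTG in 5 (7.58% against 18.3%), CAGGTG in 14 (21.2% against 22.6%), EBF1 in 4 (6.06% against 7.48%) and FOXO in 2 (3.03% against 4.05%). The members' windows were richer in G and C before the start, with a median of 56.4% against 52.4%, and held a median of 15 CpG against 6, which bears on motifs that contain CpG.

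**Figure D5:**
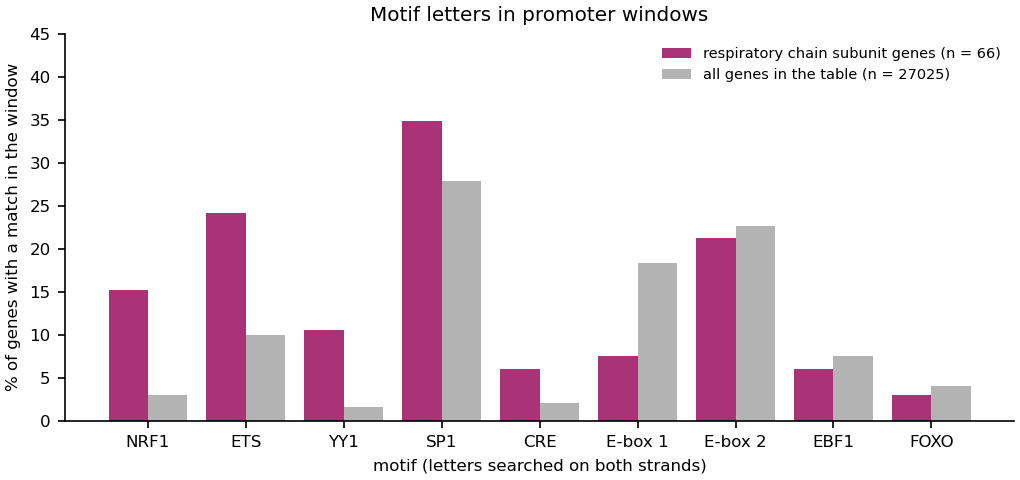
Percent of genes with at least 1 match to each motif (vertical axis) in the promoter window, for the 66 respiratory chain genes with a window and for all 27025 genes with one. NRF1, ETS and YY1 stand at 15.2%, 24.2% and 10.6% in the members against 3.05%, 9.93% and 1.64% in all genes.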

How the data were processed

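RNA was measured on Agilent arrays. Per the file headers and labels, the deposited intensity values are processed signals of Feature Extraction 9.5.3.1, background-subtracted and dye-normalized within the array. The 6 RNA samples with described channels were used, 2 per group; undescribed channels were not used. Processed signals were quantile-normalized on the log2 scale. A probe was kept if 1 or more groups had it well above background in each replicate, and a gene was tested on its brightest probe, where that was kept, with limma 3.58.1 in R 4.3.3. The model held group and dye, with the array as a random block (correlation -0.04) and a trended prior (prior df 2.50, residual df 2), and p-values were adjusted by Benjamini-Hochberg over 12368 genes. Named genes were, in each comparison and complex, up to 4 called members in each direction by size, with tissue isoforms, the Sdh genes, members not encoding subunits, and up to 3 genes per direction of each other list. Per the submitters' processing notes, the deposited ChIP-seq region lists are HOMER output on mm8, each with a whole-number score of unstated scale; 1 library was made per mark. Array gene names were matched to GRCm38.p6 RefSeq symbols for promoters with Python 3.11.15 and pandas 2.3.3; mm8 positions were never joined to GRCm38 ones. Members and gene lists were chosen with earlier results of these data known. Alternatives were another scaling, background correction, filter, probe rule, dye, block and prior, and leaving out each sample. Replicate numbers did not pair the samples. For 1 member, counted in all totals, values are not reported here.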

Additional observations from a re-analysis of the deposited data

How the results depend on the processing

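The median difference of the 80 genes kept its sign from E2A-/- to EBF-/- and from E2A-/- to RAG1-/- cells in all 14 alternatives. Scaling to the 75th percentile moved it to 0.11 from EBF-/- to RAG1-/- cells and to -0.016 from E2A-/- to RAG1-/- cells. Leaving out 1 sample gave medians of -0.23 to -0.10 from E2A-/- to EBF-/- cells, -0.11 to 0.012 from EBF-/- to RAG1-/- cells (0.012 without RAG1-/- replicate 1) and -0.26 to -0.15 from E2A-/- to RAG1-/- cells. The 15 calls from E2A-/- to EBF-/- cells became 7 with 75th percentile scaling, where 23.3% of all tested genes were called. They became 8 without the detection filter (9.9% of all genes) and 4 with a prior without a trend (16.1%). The 23 calls from EBF-/- to RAG1-/- cells became 13 with the untrended prior (37.8% of all genes). With 1 sample left out, the count in this comparison ran from 2 to 28, where 1 group rested on 1 sample. The 29 calls from E2A-/- to RAG1-/- cells became 16 with 75th percentile scaling (44.9% of all genes) and 14 with the untrended prior (40%). With the replicate number as a block, the counts for EBF-/- over E2A-/-, RAG1-/- over EBF-/-, and RAG1-/- over E2A-/- cells were 30, 36 and 39, where 42.1%, 56.3% and 57.7% of all tested genes were called. Same-numbered samples did not deviate together (correlations -0.40, 0.16 and 0.01), so the numbers do not pair the samples.

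From EBF-/- to RAG1-/- cells, uncalled differences of 2 genes changed sign: Atp5j2 to 0.032 with 75th percentile scaling and 0.18 with the mean of its probes, and Cox7a2l to 0.0067 with that scaling, ranging from -0.29 to 0.10 when 1 sample was left out (0.093 without EBF-/- replicate 1, 0.10 without RAG1-/- replicate 2). The cause was not tested. Counts of members near a region depended on the distance. Within 5 kb they were, in EBF-/- cells, 9 for H3K4me1, 39 for H3K4me3, 39 for H3K9/14ac and 0 for H3K27me3, of the 80. Of all tested genes, 9.09%, 20.7%, 25.8% and 0.771% had such a region within 5 kb. In RAG1-/- cells the counts were 10 for E2A, 0 for EBF, 34 for H3K4me1 and 38 for H3K4me2. Of all tested genes, 12.0%, 1.64%, 26.0% and 32.5% had one. The RAG1-/- counts for H3K4me3, H3K27me3 and H3K9/14ac were 36, 2 and 38, against 25.3%, 1.8% and 24.7% of all tested genes. For E2A in RAG1-/- cells the share of the members was 12.5%, close to that of all tested genes. Within 20 kb, H3K27me3 in EBF-/- cells had 4 (5.0% against 3.64%). In RAG1-/- cells E2A had 32 (40.0% against 34.5%), EBF 4 (5.0% against 6.19%), FOXO1 5 (6.25% against 7.29%) and H3K27me3 8 (10.0% against 6.95%). At or above the median score in EBF-/- cells, E2A had 8 (10.0% against 6.75%) and H3K4me1 10 (12.5% against 9.8%). H3K27me3 there had 0 (0.0% against 1.13%). In RAG1-/- cells E2A had 10 (12.5% against 11.6%), FOXO1 1 (1.25% against 2.26%) and H3K4me1 35 (43.8% against 22.9%).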
